A study of Homo sapiens with 6 samples.

Results

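The genes described here are the chaperones, folding enzymes, degradation factors, translocation factors and stress sensors of the endoplasmic reticulum (ER), the compartment in which secreted and membrane proteins are folded. The list names 36 genes. Estimated counts of all transcripts were summed per gene, and 35 of the 36 reached a mean of at least 50 counts over the 6 libraries, among 11909 genes that did so in the whole table. DERL3, a degradation channel homologue, averaged 16.5 counts and was not followed further. By role, 17 of the measured genes fold proteins, 8 serve degradation, 6 serve translocation or transport, and 4 are sensors or their effector.

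The cells were J82, an established human bladder cancer line, in 2 derivatives. The tet-ZFP36L1 derivative overexpresses ZFP36L1 when doxycycline is given, and the tet-control derivative is its control. Each was sampled by RNA sequencing at 0 h (no doxycycline), 6 h and 24 h, with doxycycline at 1 µg/mL given to both derivatives at 6 and 24 h. Each of the 6 groups is 1 library, so no difference below has a replicate check and no test is given. The promoter behind the transgene, what the control construct carries and whether a derivative is a clone or a pool are not given in the sources used here. ZFP36L1 is an RNA-binding protein that binds AU-rich elements in 3′ untranslated regions (UTRs) and recruits deadenylation and decay enzymes.

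When unfolded proteins build up in the ER, 3 sensors respond in the textbook account of the unfolded protein response. IRE1 (gene ERN1) cuts a short intron out of XBP1 mRNA, PERK (EIF2AK3) slows translation, and ATF6 is cut in the Golgi to release a transcription factor. Spliced XBP1 and cleaved ATF6 then raise transcription of chaperones, many through an ER stress response element (ERSE) in the promoter.

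The libraries held 20739025 to 21380480 estimated counts. In tet-ZFP36L1 the overexpressed gene itself reached 220, 3127 and 3133 CPM at successive times, against 234, 223 and 206 CPM in tet-control, where CPM is the count per 1000000 counts of a library after scaling with trimmed mean of M values (TMM). The tet-ZFP36L1 24 h library stood apart, with a TMM factor of 1.115 against 0.941 to 1.006 in the other libraries and 15695 genes at 10 or more counts against 14515 to 14956. Of 14 urothelial markers 5 were measured (KRT7, KRT8, KRT18, FOXA1 and PPARG), while UPK2 and UPK3A, which define mature urothelium, were at 0. The urothelial list summed to 1265, 1635 and 1448 TPM (transcripts per 1000000, a unit corrected for length) in tet-ZFP36L1, against 736, 839 and 673 TPM in tet-control, in the order 0, 6 and 24 h. Of 5 mesenchymal markers 4 were measured and TWIST1 was at 0. Their summed level was 3684, 4001 and 1460 TPM in tet-ZFP36L1, against 666, 774 and 753 TPM in tet-control, so it was lower in the same tet-ZFP36L1 24 h library in which most results below were read. FN1 held most of that range, at 94.95 to 2786 TPM over the libraries. Of 6 markers of blood, endothelial and glial cells 1 was measured, CD68, which reached at most 31.29 TPM. These markers summed to 12.05, 16.72 and 31.94 TPM in tet-ZFP36L1, against 1.805, 8.935 and 5.484 TPM in tet-control, highest in the same 24 h library. The part of these differences in the results below was not tested.

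The pattern that the following paragraphs describe was lower expression of the luminal folding machinery in tet-ZFP36L1 cells at 24 h of doxycycline. The measure used subtracts the tet-control log2 change since 0 h, at the same time of doxycycline, out of the tet-ZFP36L1 log2 change, computed on log2(CPM + 0.5) and called the difference beyond tet-control. Of the 35 ER genes, 14 were at least 1.5-fold lower by this difference at 24 h and 0 were at least 1.5-fold higher, where 17.4% of all measured genes were lower and 13.9% higher. Without a scaling factor 11 ER genes were lower and 1 higher, where 12.1% of all measured genes were lower and 20.7% higher, and with deposited TPM 10 were lower and 1 higher, where 13.4% were lower and 18.9% higher. The median over the ER genes was −0.37, against −0.02 over all measured genes. Without a scaling factor the genes no longer past 1.5-fold downwards were DNAJC3 (−0.55), DERL1 (−0.47) and CRELD2 (−0.43). With deposited TPM they were CRELD2 (−0.49), CANX (−0.47), ERO1A (−0.41) and DERL1 (0.19). Folding genes made up most of the 14, with 12 of 17 lower and a median of −0.83, and with deposited TPM 9 of the 17 were lower. Of the 18 measured ER genes outside folding, 2 were lower and the median was −0.13. In bulk RNA, fewer cells expressing a gene and less RNA per cell cannot be told apart.

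At 6 h the difference was smaller. It was at least 1.5-fold lower for 6 of the 35 ER genes and at least 1.5-fold higher for 0, where 14.3% of all measured genes were lower and 7.02% higher. The count of lower genes is near that share, so at 6 h it does not set the ER genes apart. The median was −0.21 over the ER genes and −0.01 over all measured genes. The 6 genes were MANF, HYOU1, ERO1A and DNAJC3 among the folding genes, EDEM1 among the degradation genes and the transport gene SEC24D. HSPA5, HSP90B1, CALR and PDIA4 lay between −0.35 and −0.25 at 6 h, inside the 1.5-fold limit, while the likewise abundant CANX, PDIA6 and P4HB lay at 0.18, 0.14 and 0.02.

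**Figure D1:**
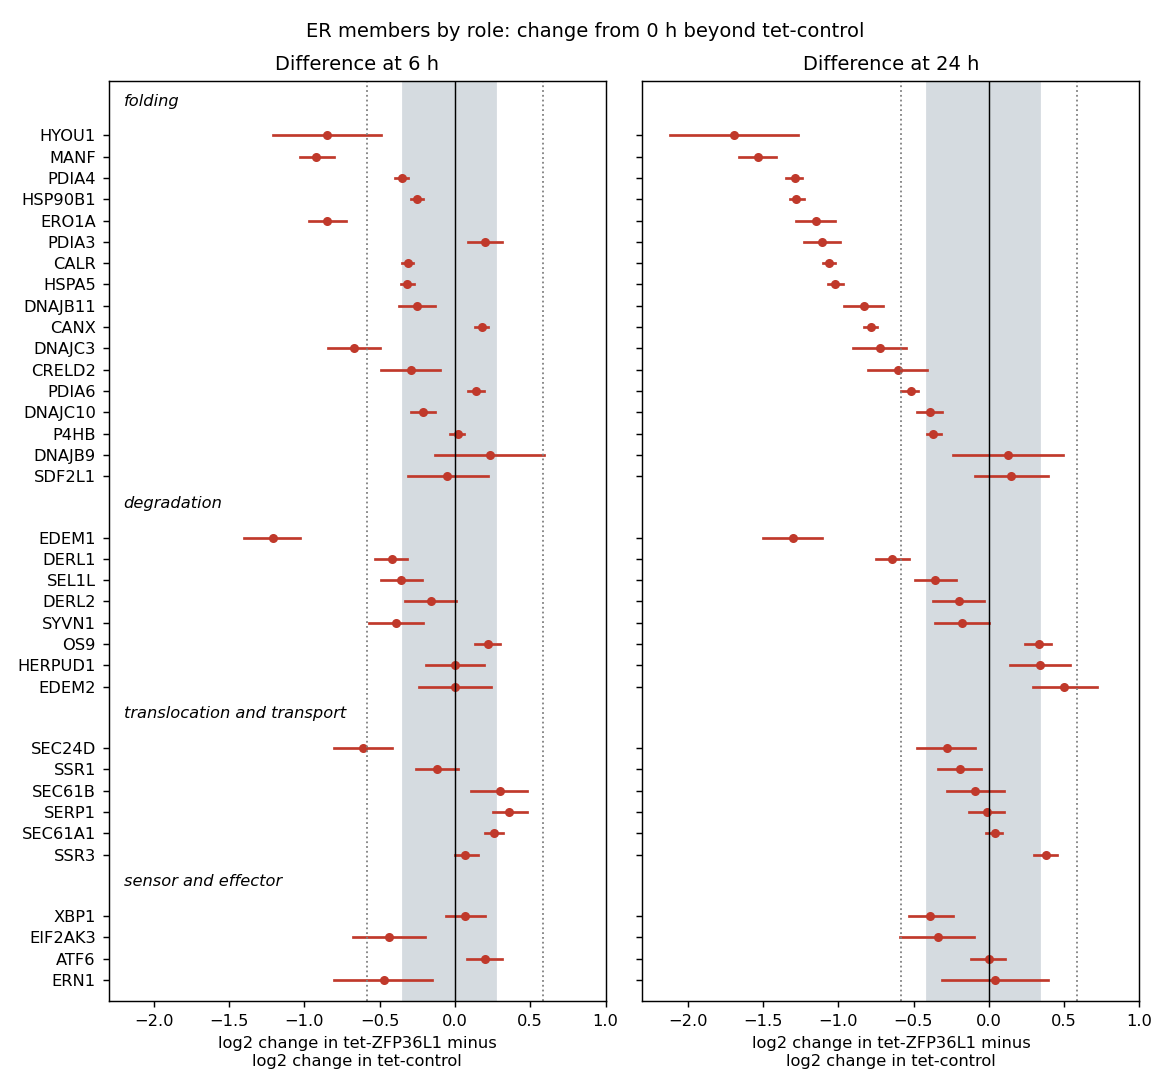
Each point gives 1 ER gene's difference beyond tet-control (log2), at 6 h (left) and 24 h (right), grouped by role, with its 95% counting interval as a line. Dotted lines mark 1.5-fold, the shaded band holds the middle 50% of all measured genes, and at 24 h 12 of 17 folding genes lie left of the lower dotted line, against 2 of the 18 other genes.

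The change within each derivative shows which side of the subtraction the difference came from. Within tet-ZFP36L1 at 24 h, 13 of the 35 ER genes were at least 1.5-fold below their own 0 h level and 0 above it, where 17.0% of all measured genes were lower and 11.8% higher. The median own change was −0.49 for the ER genes and −0.78 for the folding genes, of which 11 of 17 were lower. Within tet-control at 24 h, 0 of the 35 passed 1.5-fold in either direction, where 1.92% of all measured genes were lower and 1.6% higher, and the median was −0.03. At 6 h, 3 genes (MANF, ERO1A and EDEM1) were lower and 0 higher within tet-ZFP36L1, where 15.6% of all measured genes were lower and 9.09% higher. That count was 5 without a scaling factor, with EDEM2 and SEC24D added, and 5 with deposited TPM, where CALR (−0.65) also entered and ERO1A (−0.39) dropped out. Within tet-control at 6 h, 2 genes (HYOU1 and ERN1) were higher and 0 lower, where 7.47% of all measured genes were higher and 7.72% lower. Without a scaling factor 1 was higher (HYOU1) and 1 lower (EDEM2) there, and with deposited TPM 2 were higher and 2 lower. The shares over all measured genes in this paragraph are for TMM-scaled counts only.

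**Figure D2:**
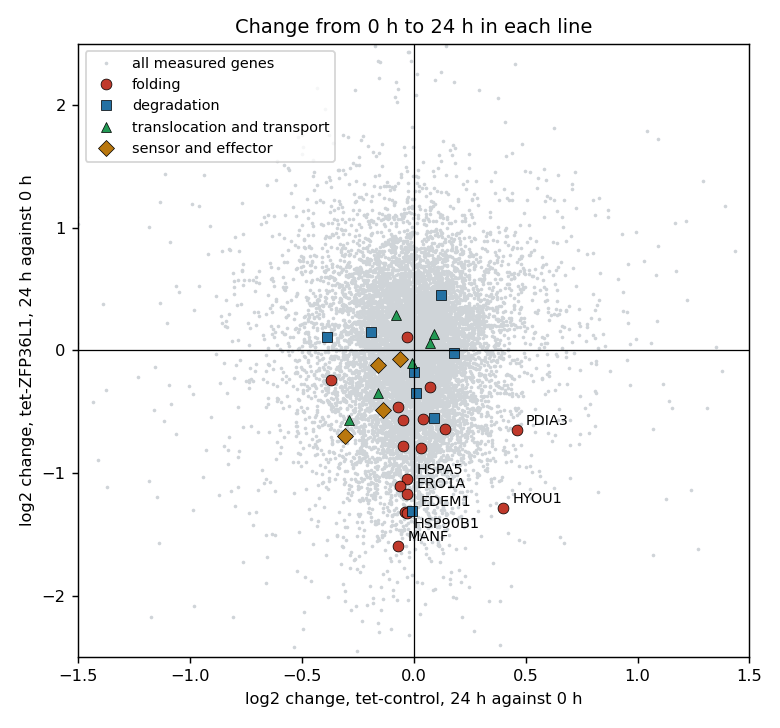
The log2 change from 0 h to 24 h in tet-ZFP36L1 (vertical axis) is plotted against that in tet-control (horizontal axis) for each ER gene, coloured by role, over all measured genes in grey. Folding genes spread downwards to −1.60 on the vertical axis while 17 of 17 stay within 1.5-fold on the horizontal axis, and 90 of the 11909 measured genes lie outside the axes and are not drawn.

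Comparing the derivatives at the same time does not depend on the 0 h libraries for 6 and 24 h. At 0 h, tet-ZFP36L1 was at least 1.5-fold below tet-control for 1 of the 35 ER genes (SDF2L1, a partner of the co-chaperone DNAJB11) and above it for 0, where 7.98% of all measured genes were lower and 10% higher. SDF2L1 was inside 1.5-fold without a scaling factor and with deposited TPM, and with deposited TPM 2 genes (HYOU1 and SEC24D) were at least 1.5-fold above tet-control. At 6 h, 5 (MANF, CRELD2, SDF2L1, ERO1A and EDEM1) were lower and 0 higher, where 15.3% of all measured genes were lower and 12.4% higher, and with deposited TPM 3 were lower (MANF, EDEM1 and EIF2AK3). At 24 h, 13 were lower and 1 (HERPUD1, a stress-inducible degradation factor) was higher, where 20.3% of all measured genes were lower and 18.4% higher. With deposited TPM 10 were lower and 5 higher, the 5 being HERPUD1 (0.79), OS9 (0.73), ERN1 (0.72), SEC24D (0.59) and ATF6 (0.59). CANX, PDIA6 and ERO1A were then no longer among the lower genes. The shares over all measured genes in this paragraph are for TMM-scaled counts only, so the counts with deposited TPM have no background beside them. On scaled counts folding genes supplied 12 of the 13, with deposited TPM 9 of the 10, and on scaled counts their median difference between the derivatives was −0.96 then, against −0.12 without doxycycline. SDF2L1 and HERPUD1 are named because they were counted, after their values were seen.

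On a scale per transcript length, the folding genes together held 5098, 4181 and 2968 TPM at 0, 6 and 24 h in tet-ZFP36L1, against 5201, 5207 and 5073 TPM in tet-control. The sum for folding genes was thus lowest in tet-ZFP36L1 at 24 h, which was not so for degradation or translocation genes. Degradation genes summed to 489, 539 and 558 TPM in tet-ZFP36L1, against 425, 468 and 417 TPM in tet-control. Translocation and transport genes summed to 846, 990 and 994 TPM in tet-ZFP36L1, against 836, 939 and 806 TPM in tet-control. The sensors and XBP1 summed to 128, 150 and 98.2 TPM in tet-ZFP36L1, against 123, 141 and 101 TPM in tet-control. Over the 6 libraries CALR had the highest mean level of the ER genes, 1089 TPM, and ERN1 the lowest, 4.39 TPM.

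Highly expressed genes were lower more often at 24 h in the table as a whole. Among the 2382 most abundant of the measured genes, those with a mean of at least 2010 counts, 23.3% were at least 1.5-fold lower by the difference beyond tet-control at 24 h and the median was −0.21. Of the 17 ER genes among them 9 were lower, with a median of −0.64. Of the 18 less abundant ones 5 were lower, with a median of −0.24.

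HSPA5 encodes BiP, the ER Hsp70 chaperone that binds the luminal side of the stress sensors. Its successive levels, given here as for every gene below in the order 0, 6 and 24 h, were 796, 846 and 384 CPM in tet-ZFP36L1, against 922, 1220 and 902 CPM in tet-control. The 24 h level in tet-ZFP36L1 was below every other library, and the difference beyond tet-control was −1.02 (95% counting interval −1.07 to −0.97). At 6 h the difference was −0.32, which came from a tet-control value 0.40 above its own 0 h level on the log2 scale and a tet-ZFP36L1 value 0.09 above its own. HSP90B1 encodes GRP94, the ER Hsp90. Its levels were 1187, 985 and 475 CPM in tet-ZFP36L1, against 1145, 1131 and 1111 CPM in tet-control, a flat course in the control and a difference of −1.28 (−1.32 to −1.23) at 24 h. HYOU1, an ER chaperone that also acts as a nucleotide exchange factor of BiP, measured 11.5, 13.01 and 4.39 CPM in tet-ZFP36L1, against 7.60, 15.95 and 10.2 CPM in tet-control. Its difference at 24 h was −1.69 (−2.12 to −1.27), but only 3.0% of its counts fell on full-length coding transcripts, since 1 of its 6 annotated ones was among those in the table, and its values are uncertain. The short HYOU1-214 took 168.0, 147.3 and 48.8 estimated counts in tet-ZFP36L1, against 98.4, 189.4 and 73.4 in tet-control.

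CALR and CANX encode calreticulin and calnexin, the lectin chaperones that hold glycoproteins during folding. CALR measured 1262, 931 and 583 CPM in tet-ZFP36L1, against 1395, 1279 and 1343 CPM in tet-control, and its difference was −0.31 at 6 h and −1.06 (−1.10 to −1.02) at 24 h. The course of CANX was not monotonic, with 774, 900 and 497 CPM in tet-ZFP36L1, against 747, 766 and 826 CPM in tet-control. CANX was thus the higher of the pair of libraries at 6 h (difference 0.18) and the lower at 24 h (−0.78, −0.83 to −0.74). With deposited TPM in place of scaled counts the 6 h sign of CANX turned, to −0.25, and its 24 h difference of −0.47 was inside 1.5-fold.

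The disulfide enzymes differed in size of response. PDIA4, a protein disulfide isomerase, measured 737, 521 and 293 CPM in tet-ZFP36L1, against 800, 723 and 781 CPM in tet-control, and its difference was −1.29 (−1.35 to −1.24) at 24 h. PDIA3, the isomerase that works with calnexin and calreticulin, measured 114, 166 and 72.8 CPM in tet-ZFP36L1, against 107, 135 and 147 CPM in tet-control, a difference of −1.11 (−1.23 to −0.99) at 24 h. Only 34.6% of PDIA3 counts lay on its full-length coding transcript and 36.8% of its 31-base words recur in other genes, so its level is uncertain. On the full-length PDIA3-201 alone the estimated counts were 841.5, 1088.9 and 547.3 in tet-ZFP36L1, against 893.6, 815.5 and 892.5 in tet-control. That keeps the order of the gene sums at 24 h, without their rise in tet-control. PDIA3-202, annotated to nonsense-mediated decay, had 200.4, 779.1 and 47.9 in tet-ZFP36L1, against 52.9, 170.1 and 683.6 in tet-control. Part of the 24 h difference of PDIA3 therefore lay off its coding transcript. ERO1A, the oxidase that recharges the isomerases, measured 130, 74.3 and 57.5 CPM in tet-ZFP36L1, against 116, 120 and 114 CPM in tet-control. Its 6 h level in tet-ZFP36L1 was already below every tet-control library, with differences of −0.85 (−0.97 to −0.72) at 6 h and −1.15 (−1.28 to −1.02) at 24 h. Deposited TPM gave smaller values for ERO1A, −0.33 at 6 h and −0.41 at 24 h. The isomerases P4HB and PDIA6 and the reductase DNAJC10 stayed inside 1.5-fold at 24 h, at −0.37, −0.52 and −0.39.

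Among the co-chaperones and small luminal factors, MANF had the lowest difference of the folding genes at 6 h and, after HYOU1, at 24 h. MANF, a secreted and ER-resident factor that binds BiP, measured 132, 72.5 and 43.3 CPM in tet-ZFP36L1, against 167, 173 and 159 CPM in tet-control. All 3 tet-ZFP36L1 values lay below the tet-control values, at 0 h too, and the difference was −0.92 (−1.03 to −0.80) at 6 h and −1.53 (−1.66 to −1.41) at 24 h. DNAJB11, an Hsp40 partner of BiP, measured 101, 98.4 and 57.6 CPM in tet-ZFP36L1, against 107, 124 and 109 CPM in tet-control, so its 24 h level in tet-ZFP36L1 was the lowest of the 6 (difference −0.83, −0.96 to −0.70). DNAJC3, another BiP co-chaperone, measured 61.4, 50.03 and 35.6 CPM in tet-ZFP36L1, against 52.0, 67.5 and 50.1 CPM in tet-control, with −0.67 (−0.84 to −0.50) at 6 h and −0.72 (−0.90 to −0.55) at 24 h. Both DNAJC3 intervals span the 1.5-fold limit of 0.58, and without a scaling factor its 24 h difference was −0.55. CRELD2, an ER stress-inducible factor with isomerase activity, measured 39.3, 31.4 and 26.5 CPM in tet-ZFP36L1, against 50.6, 49.7 and 52.1 CPM in tet-control. Its difference of −0.60 at 24 h had an interval of −0.80 to −0.41, which spans the 1.5-fold limit of 0.58, and with deposited TPM it was −0.49. DNAJB9, a co-chaperone of BiP, and SDF2L1 were the folding genes above 0 at 24 h, at 0.13 and 0.15, with intervals that include 0.

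**Figure D3:**
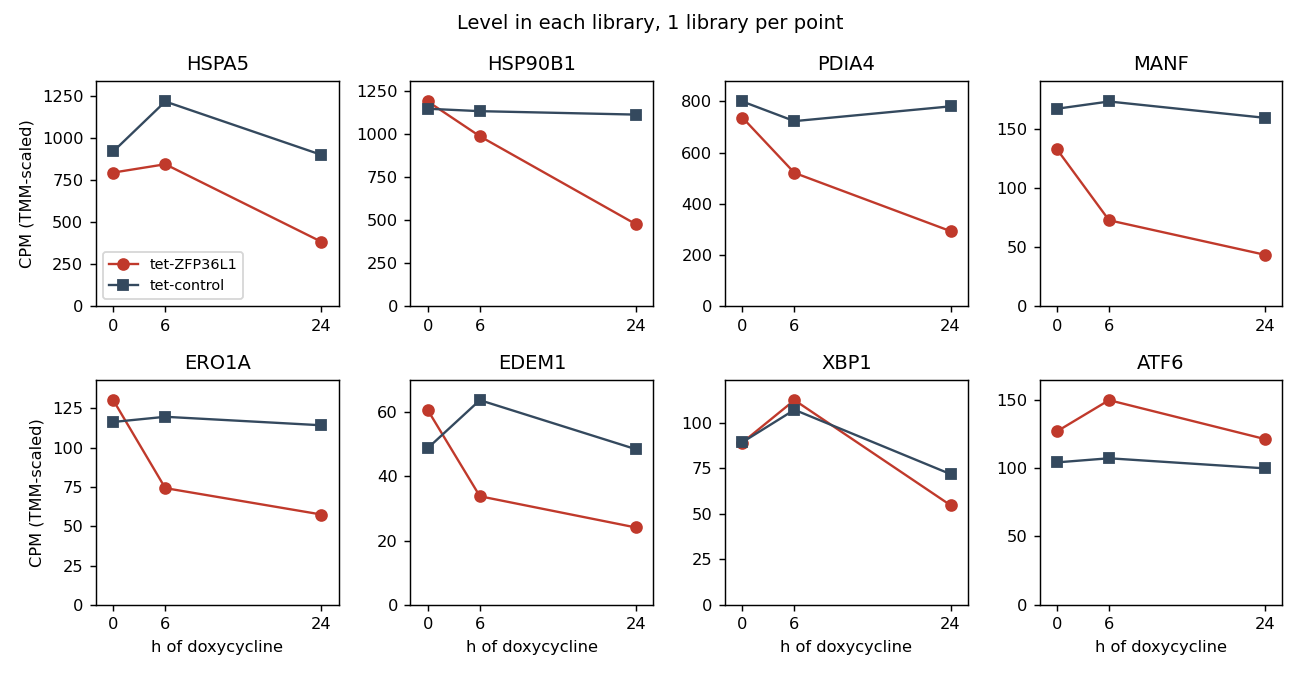
TMM-scaled CPM (vertical axes, from 0) against hours of doxycycline (horizontal axes) for 8 ER genes, with 1 library per point, circles for tet-ZFP36L1 and squares for tet-control. HSPA5, HSP90B1, PDIA4, MANF, ERO1A and EDEM1 reach their lowest level in tet-ZFP36L1 at 24 h, and ATF6 lies above tet-control at each time.

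ER-associated degradation removes proteins that fail to fold. EDEM1, a mannosidase-like lectin that marks misfolded glycoproteins for removal, measured 60.6, 33.8 and 24.1 CPM in tet-ZFP36L1, against 48.8, 63.7 and 48.4 CPM in tet-control. Its uninduced level was the higher of the pair and its 6 and 24 h levels the lower, with differences of −1.21 (−1.4 to −1.03) at 6 h, the lowest of the 35 ER genes at that time, and −1.30 (−1.5 to −1.11) at 24 h. DERL1, a channel homologue, measured 154, 130 and 105 CPM in tet-ZFP36L1, against 131, 148 and 139 CPM in tet-control. Its difference at 24 h was −0.64 (−0.75 to −0.53) on scaled counts and 0.19 on deposited TPM. Counts on the long DERL1-201 were 2457.0, 1661.0 and 1298.7 in tet-ZFP36L1, against 1900.3, 2040.4 and 2224.1 in tet-control, whereas those on the short DERL1-204 were 204.5, 273.3 and 303.5 in tet-ZFP36L1, against 210.8, 164.2 and 164.2 in tet-control. The call for DERL1 therefore depends on how transcripts of unequal length are added. The other 6 measured degradation genes lay between −0.36 (SEL1L, the adaptor of the ligase SYVN1) and 0.50 (EDEM2) at 24 h.

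Translocation and transport genes supplied 0 of the 14 at 24 h and had a median of −0.05, with a range of −0.28 (SEC24D) to 0.38 (SSR3). They include channel subunits of the Sec61 translocon (SEC61A1 and SEC61B), its associated proteins (SSR1, SSR3 and SERP1) and a coat protein of ER exit vesicles (SEC24D). SEC24D was the gene of this role past 1.5-fold at 6 h, at −0.61 (−0.80 to −0.42), and it measured 59.4, 39.9 and 39.8 CPM in tet-ZFP36L1, against 41.1, 42.4 and 33.6 CPM in tet-control. Its 24 h level in tet-ZFP36L1 was the higher of the pair, because its 0 h levels already differed. It falls outside the 14 genes given in full and is named for its 6 h value.

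The sensors and XBP1 stayed inside 1.5-fold by the difference beyond tet-control at both times. ERN1, the kinase and RNase IRE1, measured 14.4, 16.1 and 13.3 CPM in tet-ZFP36L1, against 11.2, 17.6 and 9.97 CPM in tet-control, a difference of 0.04 (−0.31 to 0.39) at 24 h. EIF2AK3, the kinase PERK, measured 30.5, 24.0 and 21.6 CPM in tet-ZFP36L1, against 25.9, 27.8 and 23.4 CPM in tet-control, a difference of −0.34 (−0.59 to −0.10). ATF6, the membrane-bound transcription factor, measured 127, 150 and 121 CPM in tet-ZFP36L1, against 104, 107 and 99.7 CPM in tet-control. Its tet-ZFP36L1 libraries lay above its tet-control libraries at each time, while the difference beyond tet-control at 24 h was −0.00 (−0.12 to 0.11). XBP1, the transcription factor that IRE1 activates by splicing, measured 89.1, 112 and 54.7 CPM in tet-ZFP36L1, against 89.3, 107 and 71.8 CPM in tet-control. Both derivatives had their highest XBP1 level at 6 h and their lowest at 24 h, with an own change at 24 h of −0.70 in tet-ZFP36L1 and −0.31 in tet-control, and the difference was 0.07 (−0.06 to 0.20) at 6 h and −0.39 (−0.53 to −0.24) at 24 h. Levels of these mRNAs do not measure sensor activity.

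The measured XBP1 transcripts include forms with and without the short intron, and its sequence is shown because the share below rests on it. In GRCh38 the intron removed by IRE1 lies on chromosome 22 within a coding exon of XBP1, on the minus strand. It is 26 bases long, and the repeats at its ends allow 7 equivalent placements of the same removal. The placement of the transcript annotation is printed, and its ends need not be the cut sites of IRE1. It is given with its coordinates and with 12 flanking bases on each side, the removed bases in capitals.
XBP1 intron, chr22:28796122-28796147: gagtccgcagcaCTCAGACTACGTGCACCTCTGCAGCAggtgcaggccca
The number of bases removed leaves a remainder of 2 when divided into codons, so splicing changes the reading frame downstream.

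Transcript XBP1-202 lacks these bases and the other XBP1 transcripts that cover the position keep them. The spliced form took 24.6% (exact 95% binomial interval 22.7 to 26.7), 25.7% (23.9 to 27.6) and 22.1% (19.8 to 24.6) of these counts at 0, 6 and 24 h in tet-ZFP36L1. In tet-control it took 26.8% (24.8 to 28.9), 33.0% (30.9 to 35.1) and 30.0% (27.6 to 32.4). The intervals of the derivatives overlap at 0 h and do not overlap at 6 and 24 h, where tet-ZFP36L1 was lower. The counts behind the shares were 447, 558 and 264 spliced in tet-ZFP36L1, against 482, 660 and 424 in tet-control. Unspliced counts were 1368, 1610 and 931 in tet-ZFP36L1, against 1317, 1342 and 991 in tet-control. These shares are estimated counts assigned to whole transcripts, not counts of reads across the junction, which alone show the splicing state. XBP1-202 has 1131 bases and XBP1-201 has 1850, so they differ in UTR length beyond the 26-base intron. Reads from bases that XBP1-202 lacks are assigned to other transcripts whatever their splicing state. The unspliced XBP1-204 had 98.8, 0.0 and 0.0 counts in tet-ZFP36L1, against 0.0, 200.9 and 0.0 in tet-control. The intervals cover counting error but not the assignment of reads or the spread between cultures, so the shares do not measure splicing alone. As a share of deposited TPM, which divides by length, the spliced form took 36.3%, 37.9% and 33.4% in tet-ZFP36L1, against 39.2%, 46.2% and 42.9% in tet-control.

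**Figure D4:**
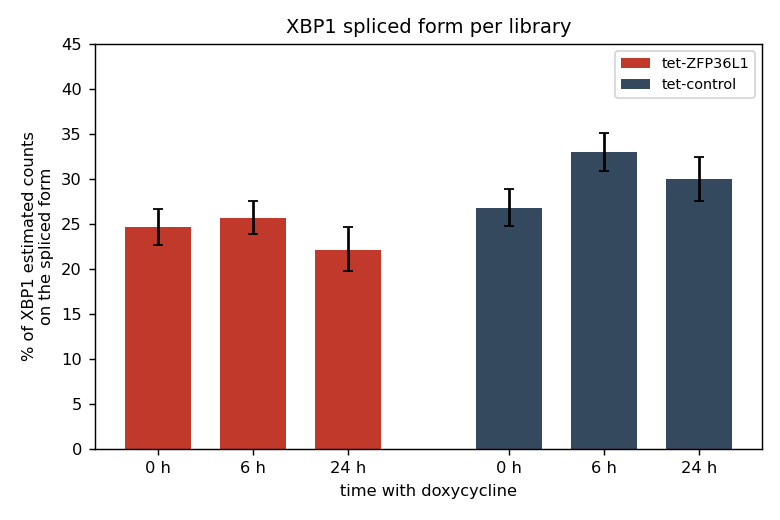
The vertical axis gives the percent of XBP1 estimated counts on the spliced form in each library, tet-ZFP36L1 at 0, 6 and 24 h (left) and tet-control at 0, 6 and 24 h (right), with exact 95% binomial intervals of counting error. The share is 22.1 to 25.7% in tet-ZFP36L1 and 26.8 to 33.0% in tet-control, with no replicate of any bar.

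Promoters of the ER genes were searched for 3 short elements in RefSeq sequences (GRCh38.p14) of 250 bases before to 50 bases after the start listed for each gene, on both strands. That start was not chosen by expression here, and other starts of a gene were not searched. The table held 32 of the 36 genes; PDIA3, DERL1, DERL3 and SEC24D were not matched. The ERSE, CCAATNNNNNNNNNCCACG, is bound by ATF6 and XBP1 together with NF-Y. It occurred in 7 of the 32 ER promoters (21.9%) and in 22 of all 27305 promoters (0.08%). The textbook account above already ties this element to chaperones, so its larger share among ER genes is not independent evidence. ERSE-II, ATTGGNCCACG, occurred in 3 ER promoters (9.4%), those of HERPUD1, HYOU1 and SDF2L1, and in 15 promoters in all (0.05%). The XBP1-type core TGACGTGG occurred in 2 ER promoters (6.2%), those of DNAJC10 and HYOU1, and in 217 in all (0.79%). In HYOU1 the core overlaps an ERSE-II match on the other strand. The exact ERSE matches are shown because the genes that carry them include most of the abundant chaperones, with the fixed letters in capitals and the position of the match's farthest upstream base relative to the start.
HSPA5, −66: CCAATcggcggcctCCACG
HSP90B1, −194: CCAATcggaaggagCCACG
HSP90B1, −89, opposite strand: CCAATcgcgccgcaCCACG
CALR, −225, opposite strand: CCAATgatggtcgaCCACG
CANX, −151: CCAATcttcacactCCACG
CRELD2, −80, opposite strand: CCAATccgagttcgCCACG
SERP1, −232, opposite strand: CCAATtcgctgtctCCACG
XBP1, −52: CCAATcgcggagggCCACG
The HSPA5 element is shown in its setting, the 150 bases before the start at chr9:125241344-125241493 on the minus strand of GRCh38.p14, with the match in capitals.
HSPA5 promoter: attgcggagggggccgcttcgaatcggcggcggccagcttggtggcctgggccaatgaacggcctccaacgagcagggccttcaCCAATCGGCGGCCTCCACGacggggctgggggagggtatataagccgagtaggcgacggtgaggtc

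Of the 7 genes with an ERSE match, 5 (HSPA5, HSP90B1, CALR, CANX and CRELD2) passed 1.5-fold downwards at 24 h, where 17.4% of all measured genes did, and their class had a median difference of −0.78. With deposited TPM 3 of the 7 did (HSPA5, HSP90B1 and CALR), where 13.4% of all measured genes did. The other two, XBP1 and SERP1, lay at −0.39 and −0.01. Of the 3 genes with ERSE-II, 1 (HYOU1) was lower. Of the 22 ER genes with neither element 6 were lower and the median was −0.27, and with deposited TPM 5 of the 22 were lower. The 5 genes with an ERSE match that were lower on scaled counts are all folding genes, so promoter class and role are not separated here. At 6 h 0 of the 7 genes with an ERSE match were past 1.5-fold, and 4 of the 22 with neither were lower, where 14.3% of all measured genes were lower. A match describes letters in this window and not binding.

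The 3′ UTRs were searched for TATTTAT, the 7-base core that ZFP36-family proteins bind as UAUUUAU. For each gene the transcript of highest mean TPM among those with an annotated stop codon and 3′ UTR was used. For HYOU1, PDIA3, P4HB, DNAJC10 and DERL2 that transcript is annotated as a target of nonsense-mediated decay and not as full-length coding. TATTTAT occurred in 12 of the 35 measured ER genes (34.3%), against 27.8% of 10989 measured protein-coding genes. With the longest annotated 3′ UTR of each gene it occurred in 12 of 35 again, against 36.2%, so the order of the shares depends on the transcript chosen. Sites of 4 genes are shown because EDEM1, ERO1A and DNAJC3 were among the 6 genes lower at 6 h and ATF6 was not. The core is in capitals, with the distance of its first base from the stop codon. ERO1A has 3 copies and DNAJC3 has 2, with its first at base 1285. Where a gene has several copies, the 1 with most A and T around it is printed, so its flanks are not typical of the gene's copies.
EDEM1, transcript EDEM1-201, chromosome 3, base 3749: ctgcattttTATTTATtttgcataa
ERO1A, transcript ERO1A-201, chromosome 14, base 750: tagattataTATTTATtctcataat
DNAJC3, transcript DNAJC3-202, chromosome 13, base 3939: taataaaaaTATTTATggtcatatc
ATF6, transcript ATF6-201, chromosome 1, base 2993: gtattttttTATTTATtaaatttta
The longer TTATTTATT surrounds the core in the printed sites of EDEM1 and ATF6.

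At 6 h the median difference beyond tet-control was −0.39 for the 12 ER genes with the core and −0.05 for the 23 without it, and 3 genes of each class were at least 1.5-fold lower, where 14.3% of all measured genes were. At 24 h the median was −0.37 in both classes, with 5 of the 12 genes with the core lower and 9 of the 23 without it, where 17.4% of all measured genes were. MANF, HYOU1 and SEC24D, lower at 6 h, have no TATTTAT in the UTR searched, and neither do HSPA5, HSP90B1, CALR or CANX. For HYOU1 that UTR belongs to HYOU1-210, a 550-base transcript annotated to nonsense-mediated decay, and does not stand for its full-length coding transcripts. These are descriptions of a small list with no test.

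Other genes of secretion and protein folding, from lists of related pathways, were counted by the same 24 h difference, for which the shares over all measured genes are 17.4% lower and 13.9% higher. Cytosolic and mitochondrial chaperones came closest to the ER folding genes, with 12 of 20 lower, 0 higher and a median of −0.69, while at 6 h 1 of 20 was lower, where 14.3% of all measured genes were. HSPE1, the mitochondrial co-chaperonin, had −1.32 (−1.43 to −1.20) and CCT5, a subunit of the cytosolic chaperonin, had −1.17 (−1.23 to −1.12). In the coat and cargo-receptor list for transport out of the ER, 3 of 15 were lower and 0 higher, with a median of −0.37. There LMAN1, a lectin cargo receptor, had −1.59 (−1.68 to −1.5) and SEC23A, a coat subunit, had −1.03 (−1.13 to −0.92).

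Glycosylation and calnexin-cycle genes had 2 of 21 lower and 0 higher, with a median of −0.23. They were UGGT2, a homologue of the folding-sensor glucosyltransferase UGGT1, at −1.21 and TXNDC5, a protein disulfide isomerase, at −0.63. Signal-peptide and translocation genes outside the ER list had 4 of 18 lower and 0 higher, with a median of −0.25, led by SEC61G, a translocon subunit, at −1.01 and SRPRA, a subunit of the signal recognition particle receptor, at −0.93. Of 17 measured degradation genes outside the ER list 1 was lower, SELENOS at −1.20, and 2 were higher, FOXRED2 at 0.83 and RNF139 at 0.80. SELENOS links the ligase complex to the VCP ATPase, FOXRED2 is an ER flavoprotein, and RNF139 is an ER ubiquitin ligase named after its value was seen, to complete the count. The list of the PERK arm and stress-induced transcription had 5 of 17 lower and 2 higher at 24 h, with a median of −0.35, and 7 lower and 1 higher at 6 h, where 14.3% of all measured genes were lower and 7.02% higher. Its largest values went opposite ways, with SESN2, a stress-inducible regulator of mTORC1 signalling, at 1.18 (0.84 to 1.53) and MBTPS2, the site-2 protease that cleaves ATF6, at −1.04 (−1.30 to −0.77).

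**Figure D5:**
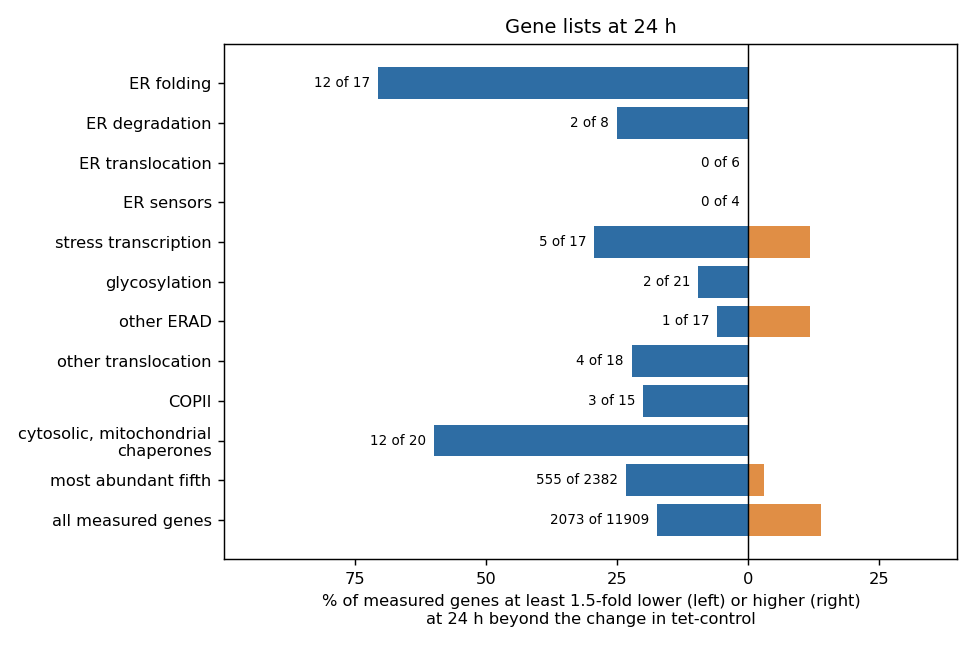
Bars give the percent of measured genes of each list that were at least 1.5-fold lower (left of 0) or higher (right of 0) at 24 h in tet-ZFP36L1 beyond tet-control, with the number lower of the number measured printed beside each bar. ER folding genes (12 of 17) and cytosolic and mitochondrial chaperones (12 of 20) have the longest bars to the left among the lists drawn, beside 2073 of 11909 for all measured genes.

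Read assignment limits some members. Fewer than 50% of counts lay on full-length coding transcripts for 6 of the 35 ER genes (DNAJC10, HYOU1, PDIA3, P4HB, HERPUD1 and DERL2), and for the other genes at least 61.9% did. Without these 6, 12 ER genes were lower at 24 h and 5 at 6 h, with medians of −0.36 and −0.25. Over all measured genes 17.4% were lower at 24 h and 14.3% at 6 h. For 9 of the 35, over 10% of 31-base words recur in other genes, HSPA5 (18.8%) and HSP90B1 (18.9%) among them.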

How the data were processed

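RNA from J82 cells was sequenced on a BGISEQ-500, and 6 libraries, 1 per group, were compared. Per the submitters' processing notes, kallisto and DESeq2 were used and hg19 is named, with no versions. Each deposited file gives, per the file headers, length, effective length, estimated counts and TPM for 196354 transcripts; the effective length was the length minus 179 for long transcripts. The authors' estimated counts were not tested here, and their sums per gene and per XBP1 form were rounded to whole counts. The 181857 transcripts found in GENCODE 29 (GRCh38) were summed to 52992 genes, and the unmatched ones held 5.12 to 5.46% of counts. Coordinates printed here are GRCh38 and come from that annotation or RefSeq, not from the deposited files.

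Counts were scaled with TMM factors (edgeR 4.0.16, R 4.3.3) from genes averaging 10 or more counts and used as log2(CPM + 0.5) with Python 3.11.15, numpy 2.4.6, pandas 2.3.3 and scipy 1.17.1. Log2 differences of low genes are understated by the added 0.5. Genes averaging 50 or more counts were kept. With 1 library per group no p-value was computed: 95% intervals (delta method; exact binomial for shares) cover counting error only, not the spread between cultures or the assignment of reads. The precision follows from 19605308 to 20245037 gene counts per library. The computation was checked on simulated counts.

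Values in all 6 libraries are given for genes past 1.5-fold at 6 or 24 h, at most the 14 largest at 24 h, plus HSPA5, XBP1, ERN1, EIF2AK3 and ATF6; of each other list the 2 largest values past 1.5-fold are named. The members, lists and alternatives were chosen with earlier results of these data known. Alternatives were DESeq2 1.42.0 size factors, no scaling factor, deposited TPM, added constants of 0.1 and 5, minimum mean counts of 10 and 200, protein-coding transcripts alone and a 2-fold limit. Leaving out the 6 genes mostly off full-length coding transcripts was added after seeing the data, as were the 3 scalings of the counts within and between derivatives and by role. Protein sequences were not analysed here.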

Additional observations from a re-analysis of the deposited data

Results flagged for a closer look

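For 11 values of 10 ER genes the derivatives moved in opposite directions from their own 0 h level, each beyond its counting interval. At 6 h 4 of the 35 ER genes did so, and 13.4% of all measured genes. At 24 h 7 of the 35 did, and 14.7% of all measured genes. The 6 h count is thus below the share over all measured genes and the 24 h count somewhat above it. Opposite movement is therefore not read as particular to the ER genes. The difference between the derivatives was not tested, since each group is 1 library. At 6 h these were EDEM1 (−1.21), DNAJC3 (−0.67), DERL1 (−0.42) and SEL1L (−0.36), all lower in tet-ZFP36L1 and higher in tet-control than at 0 h. At 24 h HYOU1 (−1.69), PDIA3 (−1.11), CANX (−0.78), DERL1 (−0.64) and P4HB (−0.37) went the same way, and HERPUD1 (0.34) and SSR3 (0.38) went the other way, higher in tet-ZFP36L1 and lower in tet-control. Values are differences beyond tet-control on the log2 scale. With DESeq2 size factors and without a scaling factor all 11 kept these directions. With deposited TPM 4 of the 11 did not: SEL1L and DERL1 at 6 h and CANX and DERL1 at 24 h. HYOU1, PDIA3, P4HB and HERPUD1 are among the genes with uncertain read assignment. Full-length coding transcripts did not all show the opposite movement. From 0 to 24 h PDIA3-201 went from 841.5 to 547.3 estimated counts in tet-ZFP36L1, and from 893.6 to 892.5 in tet-control. P4HB-201 went from 2056.8 to 2624.2 in tet-ZFP36L1, against 1897.2 to 1858.5 in tet-control. P4HB-203 went from 897.5 to 833.4 in tet-ZFP36L1, against 1333.6 to 1359.3 in tet-control.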

How the results depend on the processing

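The count of ER genes lower at 24 h was 14 with DESeq2 size factors, 11 without a scaling factor and 10 with deposited TPM. The matching shares of all measured genes were 17.9%, 12.1% and 13.4%. A 2-fold limit left 9 at 24 h and 1 at 6 h. No share of all measured genes is given at that limit, so these 2-fold counts cannot be set against a background. The count of genes higher at 24 h was 1 without a scaling factor and 1 with deposited TPM, where 20.7% and 18.9% of all measured genes were higher. The median difference beyond tet-control at 24 h was −0.20 without a scaling factor, and the median change within tet-ZFP36L1 at that time was −0.34 without a scaling factor and −0.36 with deposited TPM. Those settings also shift the 24 h median of all measured genes, which was −0.02 with TMM factors, 0.15 without a factor and 0.10 with deposited TPM. DERL1 reversed at 24 h, to 0.19 with deposited TPM, where its short transcript weighs more. The XBP1 spliced share moved with deposited TPM, to 36.3%, 37.9% and 33.4% in tet-ZFP36L1 and to 39.2%, 46.2% and 42.9% in tet-control, since TPM divides by the length of the shorter spliced form. Over 5 other scalings and added constants, 292 values of single genes moved by no more than their counting interval, 57 moved further and 1 that was past 1.5-fold changed sign (DERL1). Counting values of any size, 19 changed sign, 13 of them with deposited TPM and 4 without a scaling factor. The other counts of ER genes were set against the 3 scalings after seeing the data. Shares over all measured genes for these counts are given above with TMM factors only, so the counts that follow have no matching background. Within tet-ZFP36L1 at 6 h 5 were lower without a factor and 5 with TPM, and at 24 h 1 was higher with each. Within tet-control at 6 h 1 was lower and 1 higher without a factor, and 2 were lower with TPM. Between the derivatives at 0 h 0 were lower without a factor or with TPM and 2 were higher with TPM. At 6 h 3 were lower with TPM. At 24 h 2 were higher without a factor and 5 with TPM. The remaining counts and medians of the difference beyond tet-control, over the 35 genes, and the remaining counts under the 3 scalings stayed within 1.5 times or within the counting error. No library could be left out, since each group is 1 library. For the same reason no paired analysis was possible. Depth limits HYOU1, DNAJB9, ERN1 and EIF2AK3, whose 24 h intervals are the widest of the 35.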
